A study of Danio rerio with 30 samples.

Results

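The heads of grb10a knockdown zebrafish at 30 and at 20 dpf (days post fertilisation) were measured on 6 of the 30 arrays of the study, 3 at each age, chosen by the treatment and age in the sample titles. Each array held total RNA from a pool of 5 AB strain fish, taken from the tissue in front of the gills. The knockdown fish had been injected once, as early embryos, with a morpholino, an antisense oligonucleotide that blocks splicing, directed in the series design at the splice donor of coding exon 3 of grb10a. A further morpholino, e4i4, appears in the treatment protocol, and the site is therefore given as in the design. The control pools, 3 arrays at 20 dpf and 3 at 30 dpf, came from AB fish injected with a standard control oligonucleotide against human beta-globin. All injections also carried Phenol red and mRNA for the fluorescent protein nCerulean. How much morpholino remained at 20 or 30 dpf was not analysed here.

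Grb10 is an adaptor protein that binds the receptors for insulin and insulin-like growth factors, and in mice its loss increases growth. In the weeks covered here zebrafish pass from larva to juvenile. The thymus fills with T cells, red cells exchange larval for adult globins, teeth, bone and muscle grow, and fewer cells of the brain and retina divide. The comparison asks which genes changed in knockdown heads between both ages, and the controls of the same ages give the change without the knockdown.

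Signals are log2 values, and a difference of 1 is a doubling. Each difference is 30 minus 20 dpf, with its standard error (SE) and limma's p-value adjusted by Benjamini-Hochberg over 19260 genes. "Rose" and "fell" stand for an adjusted p under 0.05. Each group has n = 3 arrays, so p-values measure the spread between pools. Background was not measured, and signals below 6.06, which bounds the dimmest 33.3% of genes, may understate a change. In bulk tissue, fewer cells of a type and less RNA per cell cannot be told apart. Arrays within a group correlated at 0.98 to 0.986 in knockdown at both ages. The ultraviolet cone opsin opn1sw1 was at 11.21 to 12.21 in all 6 knockdown arrays. This shows eye tissue but not where the tissue of each pool was cut, which was not analysed here. Tissue in front of the gills should hold no pancreas. The mean signal of 31 exocrine pancreas genes in knockdown was 4.97 to 5.02 at 20 dpf but 6.39, 5.64 and 5.58 at 30 dpf. In control arrays at 5 dpf, under the same label, it was 9.01, 8.86 and 8.91. The pancreas signal is taken up with the genes it touches.

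The signal of grb10a itself was 8.26, 8.08 and 8.13 in the knockdown arrays at 20 dpf and 8.57, 8.40 and 8.28 at 30 dpf. The difference of 0.26 (SE 0.12) did not pass the test (adjusted p = 0.163), and that of the controls was 0.06. A splice-blocking morpholino need not lower the total signal of its target, and the position of the probes along the transcript was not analysed here. The probe set therefore does not check the labels.

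From 20 to 30 dpf 2232 genes (11.6%) changed in knockdown heads. Of these 1382 (7.18% of all genes) rose and 850 (4.41%) fell. At least 2-fold changes numbered 243 upward and 44 downward, and at least 4-fold changes 22 and 8. The controls changed at 6061 genes (31.5%), 4235 upward (22.0%) and 1826 downward (9.48%), with the same number of arrays and the same estimate of the spread. The knockdown and control comparisons share no array. Of the genes that rose in knockdown 952 also rose in controls, which is 68.9% of the knockdown list and 22.5% of the control list. Of those that fell 418 also fell in controls, 49.2% and 22.9% of the lists. Another 14 genes rose in knockdown and fell in controls, and 43 fell in knockdown and rose in controls. Without knockdown 20 dpf replicate 3 the changed genes in knockdown numbered 1148, and 1211 without knockdown 30 dpf replicate 1, which lowers list counts below as well.

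The change itself differed between treatments at 1457 genes (7.56%), lower in knockdown at 1181 (6.13%) and higher at 276 (1.43%). The count was 886 without control 20 dpf replicate 2 and 909 without control 30 dpf replicate 3. Centring each array on its median moved the median control change of all genes from 0.05 to -0.08 and the median difference of changes from -0.05 to 0.06. The control calls then split into 3087 upward and 3587 downward, the differences of changes into 496 higher and 865 lower, and the knockdown calls into 1338 and 1182. A second quantile normalization gave 3030 and 3338 for controls, 422 and 744 for the differences, and 1180 and 1059 for knockdown. Against controls of the same age, 2786 genes (14.5%) differed at 20 dpf, of which 1956 (10.2%) were higher and 830 (4.31%) lower in knockdown. At 30 dpf 193 (1.0%) differed, 70 (0.363%) higher and 123 (0.639%) lower. Those comparisons share arrays with the age comparison and are given beside it only as values. In the plot of both age changes 65.9% of all genes and 87.9% of the genes called in knockdown had the same sign in both treatments.

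**Figure D1:**
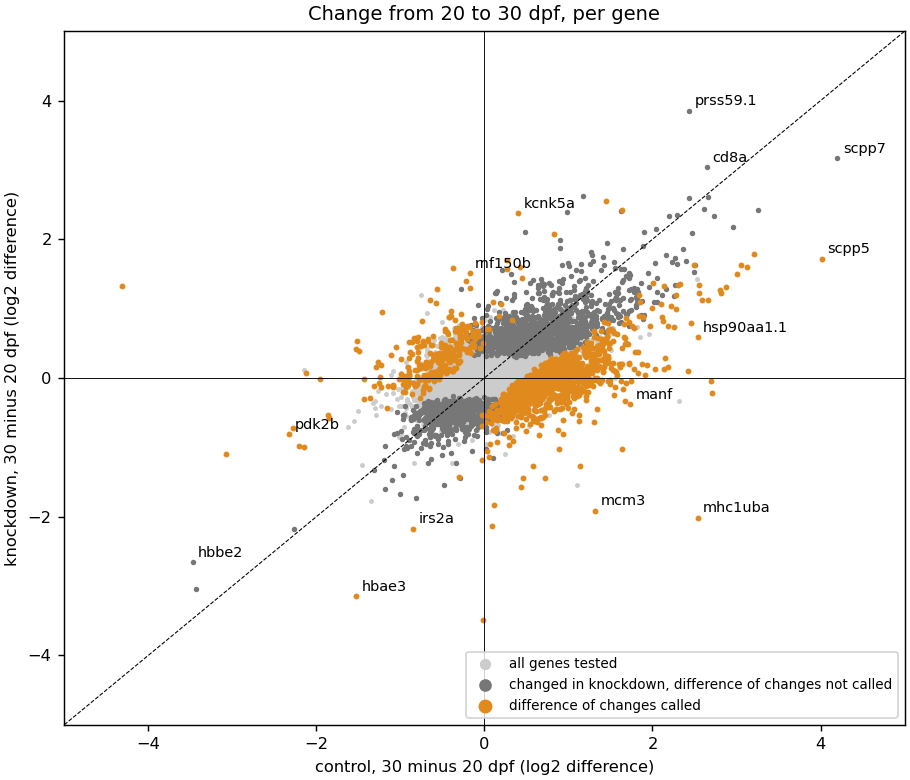
Change from 20 to 30 dpf in controls (horizontal, log2) against the change in knockdown (vertical, log2), with 1 point per gene for 19260 genes and the dashed line at equal change. Orange points are the 1457 genes whose changes differed; mhc1uba and mcm3 lie in the lower right, where knockdown fell and controls rose.

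T cell and thymus genes rose in knockdown, as they did in controls. Of 40 lymphocyte and thymus genes 19 rose and 1 fell, with a median of 0.58 against 0.01 over all genes, and 20 rose in controls. The T cell co-receptor gene cd8a was at 4.43, 4.51 and 4.03 at 20 dpf and at 7.79, 6.83 and 7.48 at 30 dpf. That is a rise of 3.04 (SE 0.31, adjusted p = 2.42e-07), starting below the dim limit. Its partner cd8b rose by 2.33 (SE 0.19), the helper co-receptor cd4-1 by 2.10 (SE 0.17), and the T cell kinase lck by 2.43 (SE 0.20). The recombinase rag1, which cuts antigen receptor genes in developing lymphocytes and was picked after its value was seen, went from 7.17, 6.82 and 6.06 to 8.46, 8.77 and 9.11. Controls gave rises of 2.65 for cd8a, 2.73 for cd8b, 1.90 for cd4-1, 2.61 for lck and 2.47 for rag1. For none of these 5 did the difference between treatments pass the test (adjusted p = 0.453 to 0.789). The member that fell was tox, a nuclear factor of developing T cells, by 0.88. Leaving out any 1 knockdown array left 16 to 19 risen members, and leaving out dim genes 10.

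Antigen presentation genes rose with them, but a pair of class I genes went the other way. Of 46 genes 17 rose and 2 fell (median 0.24), while in controls 15 rose and 2 fell. The chaperones of class II molecules cd74a and cd74b rose by 1.82 (SE 0.25) and 1.86 (SE 0.23), and ciita, the master regulator of class II genes, by 1.25 (SE 0.14). Without knockdown 30 dpf replicate 1, 8 members rose, and 11 and 10 without knockdown 20 dpf replicate 1 or 3. Leaving out dim genes left 9 risen members. The class I gene mhc1uba was at 6.72, 6.63 and 5.57 at 20 dpf and at 4.63, 4.44 and 3.80 at 30 dpf, a fall of 2.02 (SE 0.29, adjusted p = 3.27e-05). In controls it went up, from 6.37, 6.05 and 5.97 to 8.25, 8.91 and 8.85. The changes differed by -4.55 (SE 0.41, adjusted p = 3.85e-07), and the knockdown arrays at 30 dpf lay below all the others. For mhc1uka the knockdown values were 6.44, 6.81 and 6.13, then 5.49, 5.46 and 5.38, a fall of 1.02 (SE 0.24), against a control rise of 1.64. Its changes differed by -2.67 (adjusted p = 4.42e-05). Class I genes of zebrafish occur as haplotypes that differ between fish, and the haplotypes of the pools were not analysed here.

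Macrophage and neutrophil genes rose at 13 of 49 members with none falling (median 0.31), and at 16 in controls. The actin regulator of leukocytes coro1a went from 8.04, 7.85 and 7.84 to 9.12, 9.07 and 9.06, a rise of 1.17 (SE 0.13, adjusted p = 1.21e-06). The gelatinase mmp9 rose by 1.34 (SE 0.17), timp2b, an inhibitor of such proteases, by 1.37 (SE 0.21), and the lysosomal protease lgmn by 0.58 (SE 0.12). The count fell to 6 without knockdown 30 dpf replicate 1.

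**Figure D2:**
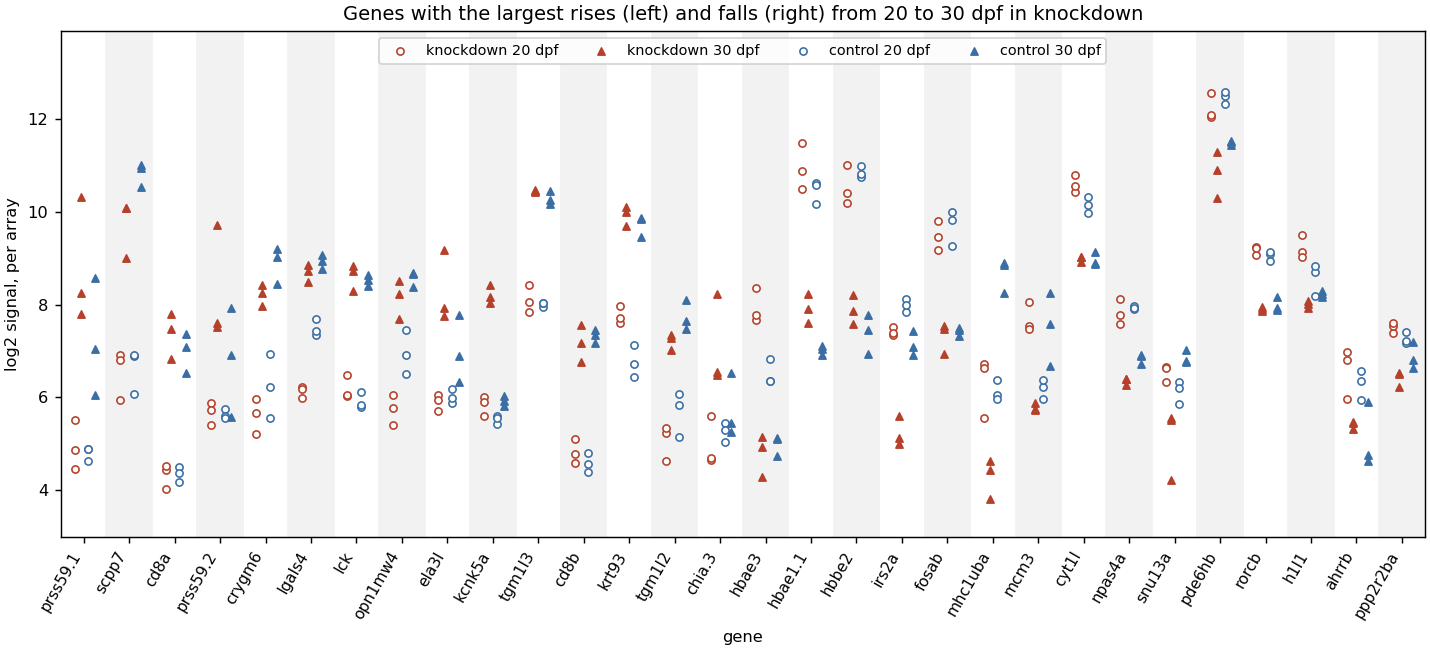
Log2 signal of each array for the 15 genes with the largest rises (left) and the 15 with the largest falls (right) in knockdown, with open circles for 20 dpf, filled triangles for 30 dpf, red for knockdown and blue for controls. For kcnk5a, irs2a, mhc1uba, mcm3 and snu13a the knockdown triangles stand apart from the control triangles, although irs2a fell in both treatments. For cd8a, lck, scpp7 and hbbe2 both treatments move the same way, with the knockdown triangles of scpp7 below those of controls.

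Tooth genes included the second largest rise in knockdown, and the rise of the list was smaller than in controls at 6 members. Of 18 genes 7 rose and 1 fell (median 0.29), against 10 risen in controls (median 0.74). The enamel protein gene scpp7 was at 6.92, 6.80 and 5.95 at 20 dpf and at 10.09, 9.01 and 10.08 at 30 dpf, a rise of 3.17 (SE 0.27, adjusted p = 1.01e-08). The control rise was 4.20, and the difference did not pass the test (-1.03, adjusted p = 0.102). At 30 dpf the control arrays were at 10.54, 11.01 and 10.95, above those of knockdown. A related gene of tooth enameloid, scpp5, rose by 1.72 (SE 0.31), from 7.07, 7.22 and 6.57 to 8.38, 8.65 and 8.97. In controls it started lower, at 5.62, 4.95 and 5.24, and rose by 4.01, a difference of -2.29 (adjusted p = 0.00167). Ameloblastin, ambn, reached 6.30, 5.86 and 6.20 in knockdown and 7.77, 8.29 and 8.43 in controls at 30 dpf. Its rises of 1.23 and 2.81 differed (adjusted p = 0.000206), and so did those of osteopontin, spp1, at 1.22 and 2.55 (adjusted p = 0.00752). The ameloblast protein odam rose by 1.44 (SE 0.20) in knockdown. Leaving out dim genes left 4 risen members. The part that the place of the cut had in the tooth values was not tested.

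Bone genes rose at 11 of 30 members with none falling (median 0.38), and at 16 in controls. The osteoclast receptor tnfrsf11a rose by 0.81 (SE 0.15) and phex, a protease of mineralising cells, by 0.71 (SE 0.13). The count was 7 without knockdown 20 dpf replicate 3 or without knockdown 30 dpf replicate 1. Cartilage genes gave 3 rises and 1 fall among 37 in knockdown (median 0.24) and 22 rises in controls (median 0.68). The 3 rises are a share near the 7.18% of all genes that rose in knockdown. No cartilage gene passed the test of the difference. With a spread from the 12 arrays at 20 and 30 dpf alone 12 rose in knockdown, and the change was lower in knockdown at 6. Array quality weights gave 4 members with a lower change. The matrix protein genes chad and snorc rose by 0.93 (SE 0.16) and 0.75 (SE 0.14), and sox5, a transcription factor of chondrocytes and neurons, fell by 0.61 (SE 0.12).

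Muscle genes rose over most of the list. Of 91 sarcomere genes 55 rose and 2 fell, with a median of 0.67 against 0.01 over all genes, and in controls 75 rose with a median of 1.20. The Z-disc gene myoz1a went from 7.65, 7.30 and 6.90 to 9.09, 8.70 and 8.94, a rise of 1.62 (SE 0.17, adjusted p = 5.88e-07). The control rise of 2.50 was larger (difference -0.87, adjusted p = 0.0287). The fast troponin tnni2b.2 rose by 1.34 (SE 0.15) in knockdown and 2.30 in controls, a difference of -0.96 (adjusted p = 0.00527). Myosin heavy chain myhb, picked after its value was seen, rose by 1.79 and 3.21 (difference -1.41, adjusted p = 0.00889). The myosin-binding mybpc2b rose by 1.25 (SE 0.14) in knockdown and by 1.20 in controls, and the Z-disc gene ldb3b by 1.24 and 1.78, without a difference that passed. The change was lower in knockdown at 17 members. That count was 10 after median centring and 8 after the second quantile normalization. It was 8 to 10 without knockdown 20 dpf replicate 1 or 2, knockdown 30 dpf replicate 2 or control replicate 3 of either age, and 27 with a spread from the 12 arrays alone. The mean signal of the list was 8.20, 8.17 and 8.05 in knockdown and 7.87, 7.77 and 7.86 in controls at 20 dpf. At 30 dpf it was 8.84, 8.75 and 8.82 in knockdown and 8.83, 8.92 and 9.08 in controls, so that the control list started lower and the groups overlapped at the end.

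Enzymes of glycolysis that muscle uses were among the risen genes of that pathway. Of 38 glycolysis genes 7 rose and 1 fell (median -0.02), and 14 rose in controls. Pyruvate kinase pkmb went from 8.91, 8.53 and 8.39 to 9.86, 9.55 and 9.90, a rise of 1.16 (SE 0.19, adjusted p = 0.000255). The phosphofructokinases pfkma and pfkmb rose by 0.86 and 0.87, and gapdh by 0.91. Respiratory chain genes rose at 3 of 76 members (median -0.08), namely cox6a2, cox5b2 and sdhda at 1.04, 0.95 and 0.88, against 15 in controls. Both shares are below those of all genes that rose, 7.18% in knockdown and 22.0% in controls. The call of cox5b2 was lost when all its probe sets were averaged (adjusted p = 0.121). None of 26 fatty acid oxidation genes passed in knockdown, and 11 rose in controls.

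Collagens and the enzymes that process them rose at 20 of 55 members, and 1 fell (median 0.32). In controls 34 rose (median 0.58). The count was 9 without knockdown 20 dpf replicate 3 and 13 without knockdown 30 dpf replicate 1. The collagen VI chain col6a3 was at 9.14, 9.12 and 9.15 at 20 dpf and at 9.89, 9.80 and 9.88 at 30 dpf, a rise of 0.72 (SE 0.13, adjusted p = 0.000553). Its partner col6a1 rose by 0.77, fibronectin fn1b by 0.81, and the collagen-binding proteoglycan lum by 0.77. In controls these 4 rose by 0.67, 0.79, 0.89 and 0.92. Over the list the change was lower in knockdown at 7 of 55 members and higher at 0. Of all genes 6.13% had a lower change. The count of 7 was 6 after median centring, 5 after the second quantile normalization and 4 to 7 without any 1 array.

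In the eye, more lens genes rose than fell and more cone genes fell than rose, in both treatments. Of 47 lens genes 13 rose and none fell in knockdown, and 18 rose and 3 fell in controls. The knockdown count was the same without any 1 knockdown array, and leaving out dim genes left 5. The gamma-crystallin crygm6 went from 5.96, 5.66 and 5.21 to 8.42, 8.26 and 7.98, a rise of 2.61 (SE 0.26, adjusted p = 2.42e-07) beside 2.66 in controls. The beta-crystallin crybb2 rose by 1.94 (SE 0.17), and crygs1 and crygn1 by 1.91 and 1.32. Crystallin genes form families of near-identical copies that probes may not separate. One lens gene, crygm2d17, did not pass the test in knockdown but fell by 3.07 in controls. The difference of 1.98 stood at the threshold (adjusted p = 0.05) and was lost in 14 of 22 alternatives.

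Cone genes fell at 11 of 31 members and rose at 2 (median -0.33), and at 15 and 1 in controls (median -0.40). No member passed the test of the difference between treatments. The cone phosphodiesterase subunit pde6hb was at 12.05, 12.09 and 12.56 at 20 dpf and at 10.31, 10.90 and 11.29 at 30 dpf, a fall of 1.40 (SE 0.23, adjusted p = 0.000157). The transducin subunit gngt2b fell by 0.98 (SE 0.14) and opn1sw1 by 0.78 (SE 0.10), against 0.94 and 0.85 in controls. One opsin rose in both: the green cone opsin opn1mw4 went from 6.05, 5.77 and 5.39 to 8.52, 7.69 and 8.24, a rise of 2.42 (SE 0.27), and by 1.62 in controls. Rod genes fell at 4 of 29 members (2 without knockdown 20 dpf replicate 3 or knockdown 30 dpf replicate 1), among them the disc rim gene prph2b by 0.75 and crx, a regulator of photoreceptor genes, by 0.79. Of 24 pigment epithelium genes 2 fell, the melanosome protein pmela by 0.52 and the retinoid carrier rlbp1a by 0.58. The falls of cone genes numbered 7 without knockdown 20 dpf replicate 1, without replicate 3 of that age or without knockdown 30 dpf replicate 1.

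Larval globins gave the largest falls among named genes, while other red cell genes rose. The alpha-type globin hbae3 went from 7.67, 7.77 and 8.36 to 4.28, 5.16 and 4.92, a fall of 3.15 (SE 0.23, adjusted p = 1.14e-09). Its partner hbae1.1 went from 10.50, 10.88 and 11.50 to 7.60, 8.24 and 7.90, and the beta-type hbbe2 from 10.19, 10.40 and 11.02 to 7.59, 8.21 and 7.86. Controls fell by 1.52 for hbae3, 3.43 for hbae1.1 and 3.47 for hbbe2. The fall of hbae3 was larger in knockdown (difference -1.62, adjusted p = 0.00243). At 20 dpf hbae3 had been at 6.35, 6.83 and 6.35 in controls, below all knockdown arrays. Of 25 red cell genes 9 rose and 3 fell (median 0.35), against 15 and 3 in controls (median 0.63). The risen genes include the first enzyme of haem synthesis alas2 (1.02), the erythroid factor klf1 (0.97) and the carbonic anhydrase cahz (1.08), picked after their values were seen. For these 3 knockdown 30 dpf replicate 1 was the highest array, at 9.59, 7.80 and 9.88. Without it 4 members rose, and 5 without knockdown 20 dpf replicate 3. The lowest p of the list among risen genes belonged to tmod4 (1.05), a gene also on the sarcomere list.

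**Figure D3:**
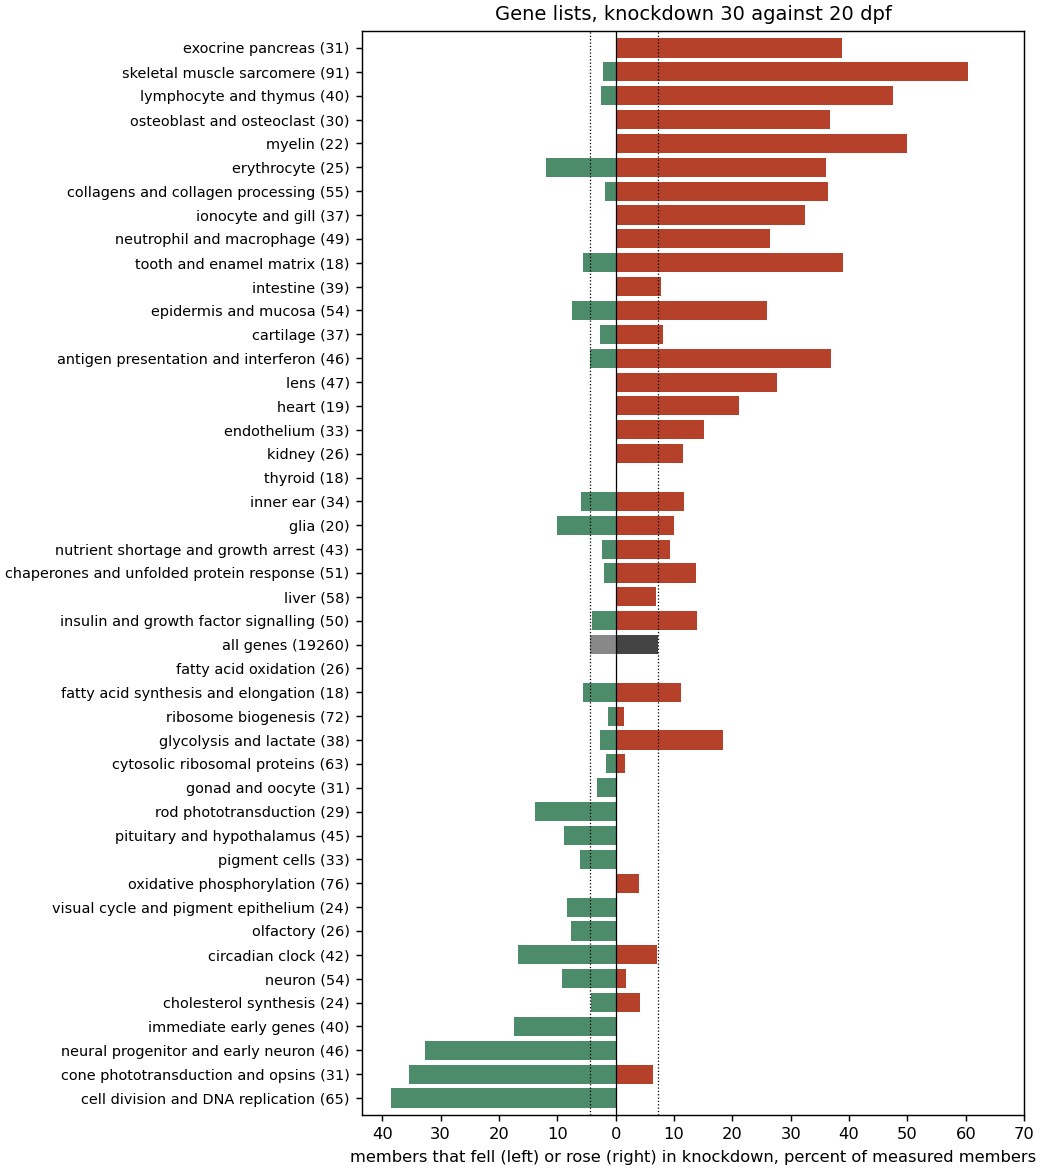
Share of the measured members of each gene list that rose (right) or fell (left) in knockdown from 20 to 30 dpf, in percent, with the number of measured members in brackets and lists ordered by their median difference. The dotted lines mark the shares over all genes, 7.18% risen and 4.41% fallen; sarcomere, myelin and lymphocyte lists extend farthest to the right and cell division farthest to the left.

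Cell division genes fell, and no member rose. Of 65 genes 25 fell in knockdown (median -0.43 against 0.01 over all genes), and the arrays of both ages did not overlap at 51 members, all lower at 30 dpf, where 15.1% of all genes were separated downward. In controls 10 rose and 3 fell (median 0.02), and the change was lower in knockdown at 17 members. The mean signal of the list was 7.18, 7.05 and 7.13 in knockdown at 20 dpf and 6.65, 6.69 and 6.74 at 30 dpf. Controls were at 6.78, 6.67 and 6.72 at 20 dpf and at 6.75, 6.71 and 6.86 at 30 dpf, so that only the knockdown list at 20 dpf stood above the other groups. Topoisomerase top2a fell from 7.70, 7.62 and 7.69 to 7.01, 6.86 and 7.02, by 0.71 (SE 0.14, adjusted p = 0.00135), and kif23, which acts in the last step of cell division, by 0.62. These 2 also fell in controls, by 0.42 and 0.39. The condensin gene smc4 fell by 0.75 (SE 0.14) with a control value of 0.11 (difference -0.85, adjusted p = 0.00949). The fallen members numbered 14 and 12 without knockdown 20 dpf replicate 1 or 3 and 13 without knockdown 30 dpf replicate 1. With a spread from the 12 arrays alone they numbered 39.

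The largest fall of the list was that of mcm3, a subunit of the helicase that opens DNA for copying. It was at 7.55, 8.05 and 7.47 at 20 dpf and at 5.72, 5.87 and 5.75 at 30 dpf, a fall of 1.91 (SE 0.29, adjusted p = 8.82e-05). In controls it rose by 1.31, from 6.24, 6.39 and 5.96 to 7.59, 6.67 and 8.26, and the changes differed by -3.23 (SE 0.42, adjusted p = 4.42e-05). The other helicase subunits on the list moved less in knockdown, with mcm4 at -0.56 and mcm7 at -0.69, both picked after their values were seen. A linker histone, h1l1, fell by 1.22 (SE 0.22) with a control value of -0.34. Another, histh1l1, fell by 0.99 in knockdown and 2.20 in controls, and these changes differed by 1.22 (adjusted p = 0.0157).

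Genes of neural progenitors and young neurons fell in both treatments. Of 46 members 15 fell and none rose in knockdown (median -0.32), and 23 fell and 2 rose in controls (median -0.40), and no member passed the test of the difference. The mean signal of the list fell from 7.60, 7.49 and 7.60 to 7.24, 7.26 and 7.28. Neurogenic factor neurod6b went from 8.47, 8.32 and 8.42 to 7.36, 7.44 and 7.63, a fall of 0.93 (SE 0.12, adjusted p = 5.79e-06), and the Notch ligand dla fell by 0.66, neurod4 by 0.75 and sox11a by 0.43. The count was 7 without knockdown 20 dpf replicate 3 and 9 without knockdown 30 dpf replicate 1 or 2. Mature neuron genes fell at 5 of 54 members and rose at 1, with the calcium-binding calb2b at -0.84 and the neurofilament nefla at 0.62. Between 1 and 3 fell without any of 5 knockdown arrays, and 6 without knockdown 30 dpf replicate 3.

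Myelin genes rose at 11 of 22 members with none falling (median 0.36), against 10 in controls. Myelin basic protein mbpa went from 9.50, 9.23 and 9.18 to 10.31, 10.26 and 10.23, a rise of 0.96 (SE 0.16, adjusted p = 0.000274). The peripheral myelin gene pmp22b rose by 1.15, gpr17, a receptor of oligodendrocyte precursors, by 0.94 and mag, a myelin adhesion protein, by 0.60. Glial genes gave 2 rises and 2 falls among 20, and 0 to 2 in each direction without single knockdown arrays. The radial glia gene fabp7a fell by 0.60, while the apolipoprotein genes apoea and apoeb rose by 0.86 and 0.45. These calls were lost in 3 of 16, 10 of 15 and 5 of 16 alternatives.

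Immediate early genes, which neurons and other cells switch on within minutes of a stimulus, fell at 7 of 40 members (median -0.23) and at 9 in controls. The transcription factor fosab went from 9.47, 9.18 and 9.82 to 7.48, 6.93 and 7.54, a fall of 2.17 (SE 0.49, adjusted p = 0.0045), and npas4a fell by 1.47 (SE 0.31). In controls they fell by 2.27 and 1.09. Without knockdown 20 dpf replicate 3, or without knockdown 30 dpf replicate 1, 3 members fell, without knockdown 20 dpf replicate 1 there were 4, and 14 with a spread from the 12 arrays at 20 and 30 dpf alone. Of 42 clock genes 7 fell and 3 rose, against 16 and 1 in controls. The rises in knockdown, a share near the 7.18% of all genes, were lost without knockdown 20 dpf replicate 3 or knockdown 30 dpf replicate 3. The nuclear receptor rorcb fell from 9.24, 9.08 and 9.23 to 7.91, 7.94 and 7.88, by 1.27 (SE 0.13, adjusted p = 4.51e-07), and rorb and the repressor nfil3-5 fell by 0.82 and 0.93. The hour of sampling was not analysed here.

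**Figure D4:**
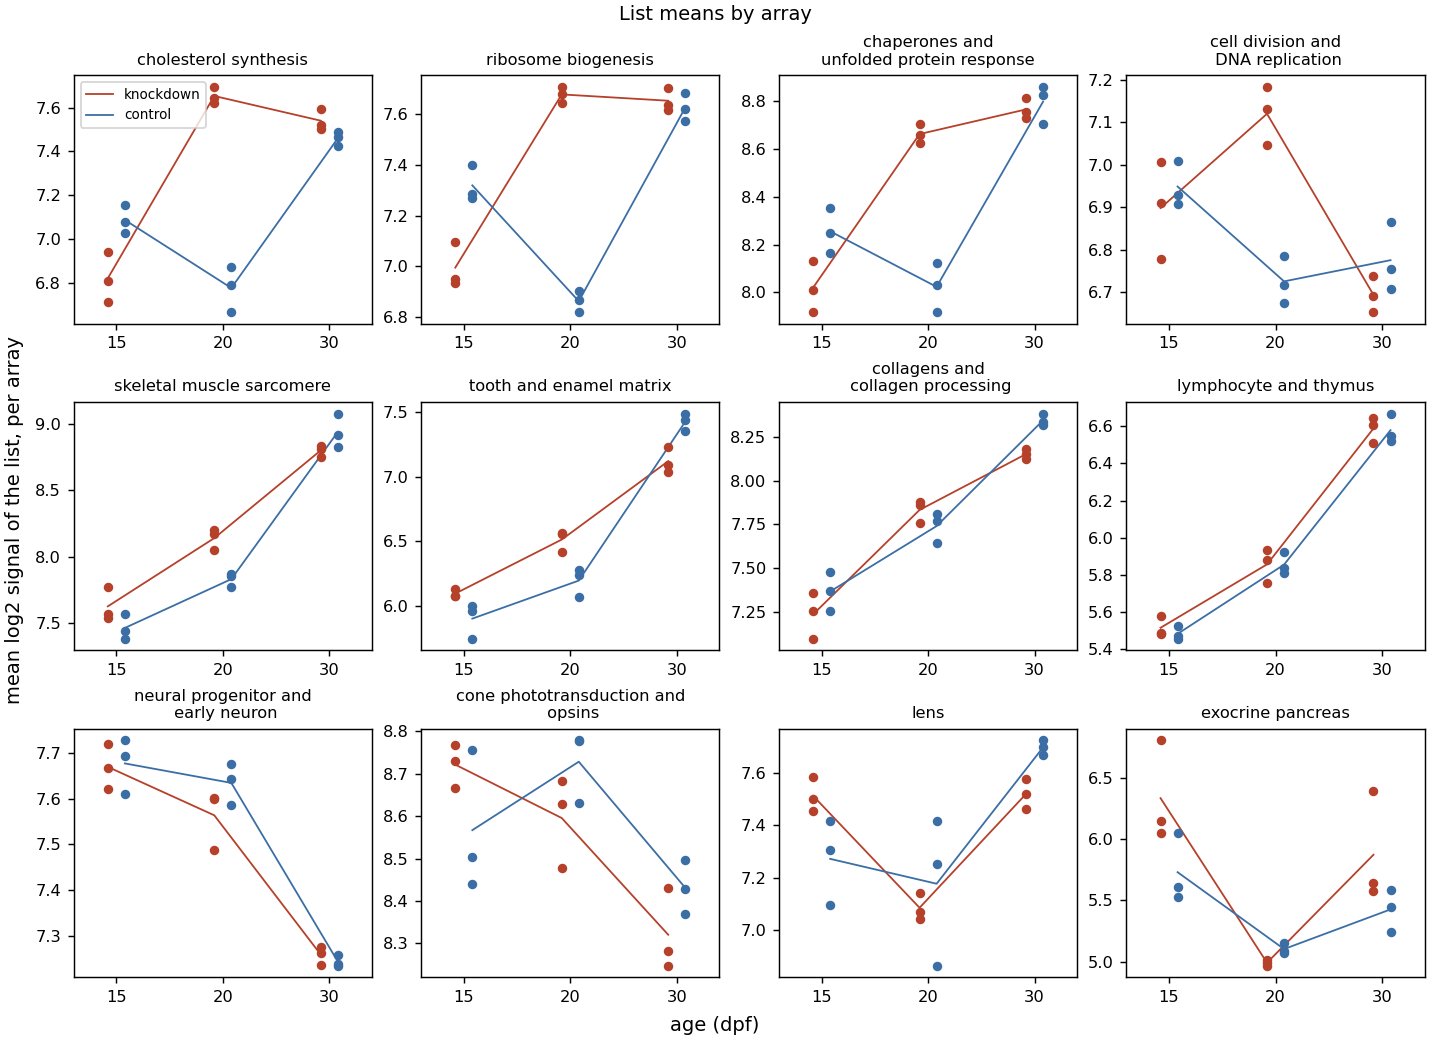
Mean log2 signal of 12 gene lists in each array at 15, 20 and 30 dpf, in red for knockdown and in blue for controls, with lines through the group means. Cholesterol synthesis, ribosome biogenesis and chaperone lists are high in knockdown at both 20 and 30 dpf. In controls they are low at 20 dpf, below the control arrays at 15 dpf. Exocrine pancreas shows 1 knockdown array at 6.39 above the others at 30 dpf, and knockdown arrays at 6.05 to 6.81 at 15 dpf.

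Few genes of ribosome biogenesis and cholesterol synthesis passed the test in knockdown between 20 and 30 dpf, whereas most of them rose in controls. Of 72 ribosome biogenesis genes 1 rose and 1 fell in knockdown (median -0.01), while 57 rose in controls (median 0.75), and the change was lower in knockdown at 47. That last count stayed between 41 and 48 after either rescaling and without any 1 array. The mean signal of the list was 7.71, 7.65 and 7.68 at 20 dpf and 7.64, 7.62 and 7.71 at 30 dpf in knockdown. In controls it was 6.90, 6.82 and 6.87, then 7.62, 7.57 and 7.69. The knockdown heads at 20 dpf were thus near the range that controls had at 30 dpf. At 15 dpf the list mean had been 7.27, 7.29 and 7.40 in controls, above their values at 20 dpf. In knockdown it had been 6.93, 6.95 and 7.10 at 15 dpf. The control rise from 20 to 30 dpf therefore followed a lower value at 20 dpf than at 15 dpf. The nucleolar genes noc2l and nolc1 changed by -0.30 (adjusted p = 0.0974) and -0.58 (adjusted p = 0.0164) in knockdown, against rises of 0.76 and 0.67. The fall of nolc1 was not called without knockdown 30 dpf replicate 1 (adjusted p = 0.183). Nucleophosmin npm1a and the rRNA methyltransferase fbl, picked after their values were seen, were at -0.16 and -0.26 in knockdown and rose by 1.65 and 1.05 in controls. Their changes differed by -1.81 and -1.31. Against controls of the same age 63 of the 72 genes were higher in knockdown at 20 dpf and none at 30 dpf. Ribosomal proteins themselves, 63 genes, gave 1 rise and 1 fall in knockdown and 4 and 2 in controls. The acidic stalk protein rplp2 rose by 0.64 and rps13 fell by 0.65.

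Cholesterol synthesis followed the same course. Of 24 genes 1 rose and 1 fell in knockdown (median -0.14), 21 rose in controls (median 0.73), and 18 changed less in knockdown. The count of 18 fell to 12 without knockdown 20 dpf replicate 1 and was 14 after either rescaling. The early enzyme hmgcs1 was at 9.51, 9.41 and 9.34 at 20 dpf and at 8.96, 9.17 and 9.16 at 30 dpf in knockdown, a difference of -0.32 (SE 0.15, adjusted p = 0.19). In controls it rose from 7.97, 7.34 and 7.89 to 8.86, 8.89 and 9.09, and the changes differed by -1.54 (adjusted p = 0.000116). The rate-limiting reductase hmgcra and the epoxidase sqlea, picked after their values were seen, were at -0.05 and -0.10 in knockdown and rose by 1.14 and 1.24 in controls, with differences of -1.19 and -1.34. The later enzyme hsd17b7 was at -0.30 against a rise of 0.80. The gene that fell was srebf2, the transcription factor that governs the pathway, by 0.37 (adjusted p = 0.0192), and msmo1 rose by 0.40 (adjusted p = 0.0199). Both calls were lost without knockdown 30 dpf replicate 1 (adjusted p = 0.0995 and 0.115). Of the 24 genes 19 were higher in knockdown than in controls at 20 dpf, and 1 at 30 dpf. Fatty acid synthesis genes followed this course at fewer members. Of 18 genes 2 rose and 1 fell in knockdown, with the elongase elovl1b at 0.67, and 7 rose and 2 fell in controls (median 0.09). The change was lower in knockdown at 2 members and higher at 1, with a median difference of -0.23 against -0.05 over all genes. At 20 dpf 5 members were higher and 1 lower in knockdown than in controls, and at 30 dpf 0 differed.

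Chaperones and genes of the unfolded protein response rose at 7 of 51 members and fell at 1 in knockdown (median 0.04), and rose at 39 in controls (median 0.81). The change was lower in knockdown at 25. The heat shock protein hsp90aa1.1 went from 9.32, 9.35 and 9.26 to 9.98, 9.71 and 9.99, a rise of 0.58 (SE 0.19, adjusted p = 0.0445) that 8 of 16 alternatives did not call. In controls it rose by 2.54 from 7.59, 7.71 and 7.59, a difference of -1.95 (adjusted p = 8.42e-05). The secreted stress factor manf changed by -0.38 (adjusted p = 0.202) against a control rise of 1.73, with a difference of -2.11 (adjusted p = 3.97e-05). The endoplasmic reticulum chaperone hspa5, picked after its value was seen, was at -0.12 against a rise of 1.55. The co-chaperone bag3, made in stressed muscle, rose in both treatments, by 1.13 (SE 0.13) and 1.36. Without knockdown 20 dpf replicate 1 or 3, or without knockdown 30 dpf replicate 1, 4 members rose in knockdown. At 20 dpf 34 members were higher in knockdown than in controls, and 1 at 30 dpf.

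In insulin and growth factor signalling, the receptor substrate irs2a fell more in knockdown. It was at 7.52, 7.34 and 7.40 at 20 dpf and at 5.13, 5.00 and 5.60 at 30 dpf, a fall of 2.17 (SE 0.21, adjusted p = 1.53e-07). In controls it fell by 0.85, from 8.11, 7.85 and 7.99 to 7.42, 6.91 and 7.08, and the changes differed by -1.33 (adjusted p = 0.00649). The knockdown arrays at 30 dpf lay below every other array of these ages. The kinase subunit pik3ca fell by 0.55 (SE 0.13) in knockdown with a control value of 0.05 (difference -0.60, adjusted p = 0.0386), while pik3cb rose by 0.49. The binding protein igfbp3 rose by 0.54 in knockdown and 0.74 in controls, and igf1, picked after its value was seen, by 0.57 and 1.06. Of 50 genes 7 rose and 2 fell, against 12 and 10 in controls. Of all genes 7.18% rose and 4.41% fell in knockdown, and 22.0% and 9.48% in controls. The 2 falls and the 12 control rises of the list are near those shares. Without knockdown 20 dpf replicate 3, 2 rose, and 3 without knockdown 30 dpf replicate 1.

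Genes of nutrient shortage and growth arrest rose at 4 of 43 members and fell at 1 in knockdown, and fell at 18 and rose at 8 in controls. The knockdown rises are a share near the 7.18% of all genes that rose. The change was higher in knockdown at 11. The rises in knockdown numbered 2 without knockdown 20 dpf replicate 2 or 3 or knockdown 30 dpf replicate 1 or 3, and 7 with a spread from the 12 arrays alone. The autophagy gene map1lc3b rose from 8.29, 8.17 and 8.20 to 8.96, 8.84 and 8.87, by 0.67 (SE 0.15, adjusted p = 0.00422), and fell by 0.47 in controls (difference 1.14, adjusted p = 0.00143). The mitophagy gene bnip3lb rose by 0.65. The kinase pdk2b, which holds back pyruvate use, fell by 0.81 in knockdown and 2.32 in controls (difference 1.52, adjusted p = 0.0038). Its knockdown arrays had started at 6.04, 5.59 and 5.94, below the control values of 7.32, 7.35 and 7.19. They also lay below the dim limit of 6.06, where a change may be understated. The knockdown call of pdk2b was lost in 5 of 16 alternatives. Further genes of this kind were among those with the largest positive differences. The translation repressor eif4ebp3l was at 0.44 (adjusted p = 0.0809) against a control fall of 1.05 (difference 1.50, adjusted p = 0.000246). The sestrin sesn1, which restrains growth signalling in mammals when amino acids are short, was at 0.27 against a fall of 0.99 (difference 1.26, adjusted p = 0.000831). The spermidine acetyltransferase sat1a.1 was at 0.46 against a fall of 0.76 (difference 1.22, adjusted p = 0.00128). Of the list 16 members were lower in knockdown than in controls at 20 dpf and none at 30 dpf.

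Several other genes changed in knockdown by another amount than in controls. The potassium channel kcnk5a was at 6.01, 5.91 and 5.59 at 20 dpf and at 8.44, 8.04 and 8.18 at 30 dpf in knockdown, a rise of 2.38 (SE 0.18, adjusted p = 1.19e-09). Control arrays were at 5.59, 5.42 and 5.57, then 6.03, 5.82 and 5.93, and the changes differed by 1.98 (adjusted p = 4.05e-05). The ubiquitin ligase rnf150b rose from 7.02, 6.72 and 7.01 to 8.69, 8.48 and 8.13, by 1.51 (SE 0.18), with a control value of -0.18 (difference 1.69, adjusted p = 0.000153). In both genes the knockdown arrays at 30 dpf lay above all others of these ages. The RNA-binding snu13a, a part of spliceosomal and nucleolar particles, fell from 6.66, 6.64 and 6.33 to 5.56, 4.21 and 5.51, by 1.45 (SE 0.23), and rose by 0.72 in controls (difference -2.17, adjusted p = 0.000201). The mitochondrial gene chchd5 fell by 1.03 and rose by 0.89 in controls (difference -1.91, adjusted p = 9.11e-05). The galectin lgals4 rose by 2.56 (SE 0.19) from 6.22, 6.19 and 6.0, more than the 1.45 of controls, which started at 7.34, 7.43 and 7.69.

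**Figure D5:**
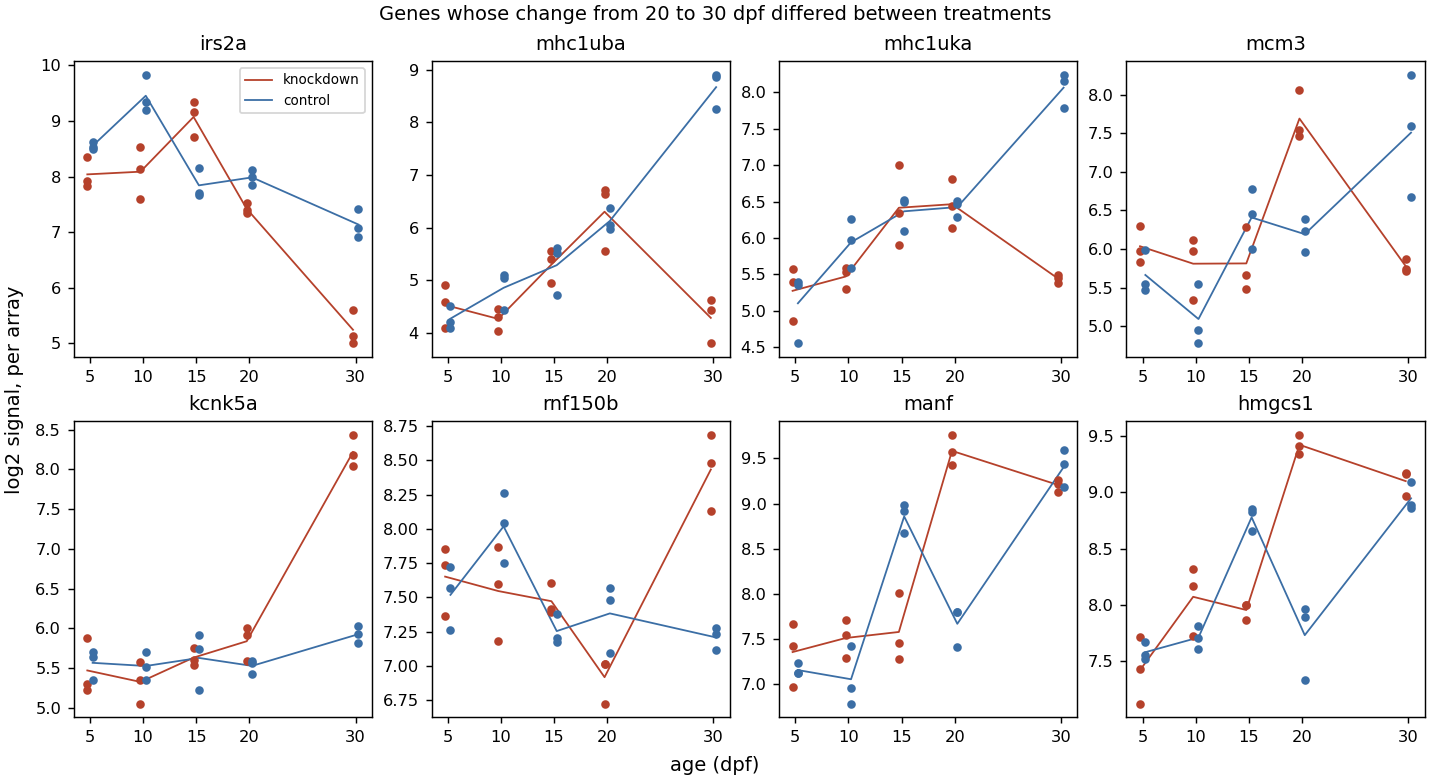
Log2 signal of 8 genes in each array at 5, 10, 15, 20 and 30 dpf, in red for knockdown and in blue for controls, with lines through the group means of 3 arrays. At 30 dpf the treatments do not overlap for irs2a, mhc1uba, mhc1uka, mcm3, kcnk5a and rnf150b. Earlier, irs2a was also lower in knockdown at 5, 10 and 20 dpf and higher at 15 dpf, and mcm3 was higher in knockdown at 20 dpf. Smaller gaps stand at 10 dpf for mhc1uka, at 20 dpf for kcnk5a and at 15 and 20 dpf for rnf150b. The genes manf and hmgcs1 were lower in knockdown at 15 dpf, higher at 20 dpf and overlapped at 30 dpf.

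Among the remaining large differences, ndrg1b fell by 0.72 in knockdown and 2.27 in controls (difference 1.55, adjusted p = 0.00437). Its knockdown call was lost in 9 of 16 alternatives. The changes of cbsa, which makes cystathionine from homocysteine, were -0.33 and 1.67, and those of rcn3, a calcium-binding protein of the secretory pathway, 0.29 and 2.15. Their differences of -2.0 and -1.86 passed the test (adjusted p = 1.19e-05 and 5.01e-05). The gene ubald1a was at 0.88 and -0.42 and mpdu1a, which acts in protein glycosylation, at 0.60 and -0.61 (adjusted p of the differences 0.0374 and 0.00376). The difference of ubald1a was lost in 13 of 22 alternatives.

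Skin and gill genes rose in part. Of 54 epidermis genes 14 rose and 4 fell (median 0.26), against 24 and 5 in controls, and 8 rose without knockdown 20 dpf replicate 3. The change was lower in knockdown at 10 of the 54 and higher at 0, while 6.13% of all genes had a lower change. The count of 10 was 6 after median centring, 5 after the second quantile normalization and 3 without control 20 dpf replicate 2. The keratin krt93 went from 7.98, 7.60 and 7.71 to 10.10, 9.69 and 10.01, a rise of 2.17 (SE 0.41, adjusted p = 0.000778), and the keratin cyt1l fell from 10.44, 10.57 and 10.79 to 9.03, 8.91 and 9.04, by 1.61 (SE 0.18). Controls moved the same way, by 2.96 and -1.18. The transglutaminases tgm1l3 and tgm1l2, of a family that cross-links proteins, rose by 2.35 and 2.14. Keratins and transglutaminases also have close copies that probes may not separate. The mucin muc5.2, picked after its value was seen, fell by 0.80 in knockdown and rose by 0.93 in controls. Of 37 ionocyte and gill genes 12 rose and none fell, against 18 and 1. The ammonia channel rhcgb rose by 1.63 (SE 0.20), and rhcga by 1.50 (SE 0.22) against 3.0 in controls, a difference of -1.50 (adjusted p = 0.00333). Without knockdown 30 dpf replicate 1 the count was 6. Gills lie outside the labelled tissue, and the part of carried-over gill in these values was not tested.

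Digestive enzymes of the pancreas held the largest rise of all named genes, and the number of risen members depended on 1 array. Signal of these genes had also been higher at 15 than at 20 dpf. At 15 dpf the mean of the 31 pancreas genes was 6.14, 6.05 and 6.81 in knockdown and 6.05, 5.53 and 5.61 in controls. The mean of prss59.1 at that age was 10.23 in knockdown and 7.99 in controls. The trypsin-like protease prss59.1 was at 4.86, 4.46 and 5.51 at 20 dpf and at 10.33, 7.80 and 8.25 at 30 dpf, a rise of 3.85 (SE 0.61, adjusted p = 0.000137), or 3.09 (adjusted p = 0.00262) without knockdown 30 dpf replicate 1. In controls it rose by 2.44 (adjusted p = 0.00343), to 8.58, 7.05 and 6.06, and the difference between treatments did not pass the test (1.42, adjusted p = 0.383). Its near copy prss59.2 reached 9.72, 7.53 and 7.62, a rise of 2.62 that did not pass without that array (1.90, adjusted p = 0.0837). The elastase ela3l rose by 2.39 (SE 0.42), to 9.18, 7.93 and 7.76, and by 1.94 (adjusted p = 0.00792) without that array. Of 31 pancreas genes 12 rose and none fell (median 0.71), with 3 risen in controls. The count was 2 without knockdown 30 dpf replicate 1 and 7, 7 and 5 without knockdown 20 dpf replicate 1, 2 or 3. The intestinal genes chia.3 and si were also highest in that first array at 30 dpf, at 8.22 and 6.64, and rose by 2.11 and 1.09. Of 39 intestine genes 3 rose, and of 58 liver genes 4, shares near the 7.18% of all genes that rose. One of the 4 was the clotting factor f10 (1.56). The mean signal of the liver list was 5.49, 5.50 and 4.96 at 20 dpf and 5.59, 5.27 and 5.17 at 30 dpf, so that both ages overlapped and replicate 3 at 20 dpf was the lowest. The part of carried-over tissue in these values was not tested.

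Further lists had few called members in knockdown, and their counts moved by up to 3 members without single knockdown arrays. Heart genes rose at 4 of 19, 2 of them also on the sarcomere list, endothelial genes at 5 of 33, and kidney genes at 3 of 26. Over all genes 7.18% rose. Leaving out dim genes left 4 heart genes, 4 endothelial genes and 1 kidney gene. Inner ear genes gave 4 rises and 2 falls among 34, and 10 rises with a spread from the 12 arrays alone. The calcium-binding s100t rose by 1.07 against 0.20 in controls (difference 0.87, adjusted p = 0.0394). Neuropeptide genes of the pituitary and hypothalamus list fell at 4 of 45, with oxytocin oxt at -0.91 (SE 0.17) and gnrh3 at -0.73. In controls 7 of this list fell, and in knockdown 1 fell without knockdown 20 dpf replicate 3. Single members fell on the pigment cell list (2 of 33) and the gonad list (1 of 31), near the 4.41% of all genes that fell. On the olfactory list 2 of 26 fell, a larger share, and 0 without knockdown 30 dpf replicate 1. None of 18 thyroid genes passed, where dio2, which activates thyroid hormone, was at 0.37 (adjusted p = 0.0837).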

How the data were processed

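The values are log2 signals per probe set, deposited by the authors. RMA is the method named by the submitters' processing notes, without a version, and no further normalization was applied. Of 75212 probe sets, 20806 (27.7%) had 1 gene symbol in the platform annotation, 855 had several and 53551 had none; the brightest of a symbol was kept, which left 19260 genes. Symbols were updated by Entrez identifier for 20323 probe sets. Depth has no meaning for arrays, and 3 arrays a group limit the precision.

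The model was limma 3.58.1 (R 4.3.3, version 1.17.8 of data.table), fitted to all 30 arrays with a mean for each group, 20 residual and 6.05 prior degrees of freedom, two-sided, with Benjamini-Hochberg adjustment. The difference of changes is the interaction of treatment and age. The fit was tested on simulated data.

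The comparison, the 44 gene lists (1712 of 2032 genes measured), the alternatives tried and the naming rule were chosen with earlier results of these data known. Named genes are grb10a, the 15 largest rises and falls and the 10 largest differences of changes in each direction, past the threshold, with knockdown groups that do not overlap and a brighter mean above 6.06. Clone-based symbols were passed over, and list examples come from the 4 smallest p-values of that list in knockdown unless said. Python 3.11.15, pandas 2.3.3 and matplotlib 3.10.9 were used for summaries and figures.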

Additional observations from a re-analysis of the deposited data

Results flagged for a closer look

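The change from 20 to 30 dpf differed between knockdown and control at 1457 genes by limma's interaction test, and the genes below are those named in the lists or by the rule for which that test passed. Values are the knockdown change minus the control change on the log2 scale, n = 3 arrays a group.

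Genes that fell in knockdown and rose in controls included the class I genes mhc1uba (-4.55) and mhc1uka (-2.67), the helicase subunit mcm3 (-3.23), snu13a (-2.17) and chchd5 (-1.91). Among biosynthesis and folding genes, most of which did not fall in knockdown, the differences were -1.54 for hmgcs1, -1.19 for hmgcra, -1.34 for sqlea, -1.10 for hsd17b7, -1.81 for npm1a, -1.31 for fbl, -1.26 for nolc1 and -1.07 for noc2l. For manf and hspa5 they were -2.11 and -1.68, and for rcn3 and cbsa -1.86 and -2.0. For hsp90aa1.1, dnaja1 and dnajb1a, which rose in both treatments, they were -1.95, -0.84 and -0.59. The ribosomal protein rplp2 went the other way, at 0.86.

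In metabolism and signalling, irs2a differed by -1.33, pik3ca by -0.60, the hexokinase hk2 by -1.05, the elongase elovl7a by -0.64 and acaa2, of fatty acid oxidation, by -0.70. Positive differences were found for map1lc3b (1.14), pdk2b (1.52), eif4ebp3l (1.50), sesn1 (1.26), sat1a.1 (1.22), ndrg1b (1.55), ubald1a (1.29) and mpdu1a (1.21).

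Tissue genes with negative differences were scpp5 (-2.29), ambn (-1.58), spp1 (-1.33), myhb (-1.41), myoz1a (-0.87), tnni2b.2 (-0.96), muc5.2 (-1.74), krt94 (-0.61), rhcga (-1.50), rlbp1b (-1.20), hbae3 (-1.62) and smc4 (-0.85). Those with positive differences were kcnk5a (1.98), crygm2d17 (1.98), rnf150b (1.69), histh1l1 (1.22), lgals4 (1.11), s100t (0.87), the elastase cela1.6 (1.84) and si (1.00). The last pair was measured beside the pancreas signal of knockdown 30 dpf replicate 1, and its part in them was not tested.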

How the results depend on the processing

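With every probe set tested one by one, 3443 of 75212 changed in knockdown, 10637 in controls and 1533 between the changes; more features were tested there. Array quality weights gave 3102, 8696 and 2693, and the cause was not tested. With only the compared arrays in the fit the counts were 2035, 7336 and 2108, and with the 12 arrays at 20 and 30 dpf 3148, 7216 and 2108. Without single arrays the counts ranged from 1148 to 1868 in knockdown, 4464 to 5240 in controls and 886 to 1302 for the difference, with fewer samples in each fit. Of 3587 values of single genes under alternatives, 3294 kept their direction and side of the threshold, 239 lost a call, 52 gained one and 2 turned their sign. With the mean over all probe sets of a gene the knockdown change of ubald1a was -0.00477 and that of uqcrfs1 0.164, since other probe sets enter. With the replicate number as a block the counts were 2257, 6108 and 1475. The numbers are not taken to pair the arrays, since deviations of same-numbered knockdown arrays at 20 and 30 dpf correlated at 0.02, 0.01 and 0.07 and those of control arrays at 0.11, 0.02 and -0.0018. Between knockdown and control they correlated at 0.18, 0.12 and 0.08 at 20 dpf and at 0.04, 0.07 and 0.05 at 30 dpf. Each array correlated best with its own number except among the controls of both ages, a hint from the data. Signals near the dim limit bound what the lens, tooth, lymphocyte and antigen presentation counts can show.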

Other observations

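Of 54406 probe sets without a single gene symbol, 1995 (3.67%) changed in knockdown between 20 and 30 dpf by limma's test over all probe sets, 995 upward and 1000 downward. They enter no comparison by gene.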
